A study of Mus musculus with 7 samples.

Results

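The regions described here are 1250 short stretches of the mouse genome, at the ends of protein-coding genes, where the histone mark H3K4me2 was called in both WT libraries and in neither DE library of bone marrow common monocyte progenitors (cMoPs). They were chosen by that call pattern alone. Touching or overlapping intervals of the 4 H3K4me2 peak lists were merged on the 19 autosomes into 39395 regions. Of these, 15609 lay within 1 kb of either end of a protein-coding gene and are called gene-end regions, and the 1250 are the WT-only ones among them. An overlap of 1 bp with a peak of a library was enough for a call. The study sorted cMoPs, committed precursors of monocytes, from mice with 1 of 2 forms of an enhancer that lies -165 kb from Zeb2, the gene of a repressor that binds E-box DNA. The form named DE is the variant, and the form named WT is the one it was set against. The labels do not explain the letters DE or the change in the enhancer. Each group was profiled by CUTAC, in which an antibody to a histone mark guides a transposase under low salt so that accessible DNA beside the mark is cut and read. H3K4me2 was read in 2 DE and 2 WT libraries of batch 2, and H3K4me3 in 1 WT library of batch 1. Library replicates are named in the labels with no word on separate animals, so the spread between them may be technical.

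H3K4me2 is carried by nucleosomes at promoters and enhancers that are open to transcription factors, and it is laid down by the MLL and SET1 methyltransferases. At strongly used promoters it is converted near the start site into H3K4me3, and H3K4me2 then flanks it. Both marks at CpG-rich promoters are widely shared among cell types, whereas H3K4me2 at enhancers is more specific to a lineage.

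The promoters of WT-only regions were mostly GC-rich. The 4 promoters below belong to the best-ranked WT-only regions whose H3K4me2 summits in both WT libraries lay inside the promoter window of the RefSeq table (GRCm38.p6, the mm10 build), which holds 250 bases before and 50 after a gene start. They are shown as the DNA under the best-ranked WT-only signal that such a window holds in both WT libraries. Better-ranked regions, such as those at L3mbtl3 and Pdzd9, did not have both summits in a window. Capitals mark matches on either strand to the GC box GGGCGG, the CCAAT box, the ETS motif CCGGAAG, the NRF1 motif, the RUNX motif TGTGGT and the E-box CACCTG.
Gpsm2: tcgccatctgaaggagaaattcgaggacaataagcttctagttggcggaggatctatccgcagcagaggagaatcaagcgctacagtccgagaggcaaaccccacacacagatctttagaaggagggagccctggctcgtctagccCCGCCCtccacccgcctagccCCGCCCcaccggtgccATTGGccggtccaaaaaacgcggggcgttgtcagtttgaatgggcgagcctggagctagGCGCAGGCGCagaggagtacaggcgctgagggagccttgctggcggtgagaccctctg
Ccni: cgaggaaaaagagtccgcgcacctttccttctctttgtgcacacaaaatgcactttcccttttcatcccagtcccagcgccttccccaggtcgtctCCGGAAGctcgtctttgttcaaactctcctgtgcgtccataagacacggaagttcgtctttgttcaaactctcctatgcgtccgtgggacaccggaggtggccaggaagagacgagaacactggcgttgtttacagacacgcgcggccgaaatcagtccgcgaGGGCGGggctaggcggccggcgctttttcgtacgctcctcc
Trpv2: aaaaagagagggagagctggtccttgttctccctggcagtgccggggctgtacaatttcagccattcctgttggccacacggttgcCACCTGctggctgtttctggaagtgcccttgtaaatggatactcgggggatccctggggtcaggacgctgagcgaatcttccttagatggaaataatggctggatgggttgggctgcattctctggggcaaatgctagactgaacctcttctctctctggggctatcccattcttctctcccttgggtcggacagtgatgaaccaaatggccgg
Atp8b3: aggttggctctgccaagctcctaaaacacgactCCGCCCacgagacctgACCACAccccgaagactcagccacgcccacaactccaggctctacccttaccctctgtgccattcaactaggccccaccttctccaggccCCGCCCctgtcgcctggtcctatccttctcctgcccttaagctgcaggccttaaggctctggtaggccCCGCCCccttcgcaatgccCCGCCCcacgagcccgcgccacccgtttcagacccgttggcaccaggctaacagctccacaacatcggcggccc
Gpsm2 encodes a protein that orients the mitotic spindle, and its promoter is chr3:108722250-108722549 on the minus strand, at 61.0% GC. The promoter of Ccni, the gene of cyclin I, is chr5:93206446-93206745 on the minus strand, at 57.0% GC. That of Trpv2, a cation channel of the cell membrane, is chr11:62575377-62575676 on the plus strand, at 54.3% GC, and holds a CACCTG. That of Atp8b3, a phospholipid flippase, is chr10:80539075-80539374 on the minus strand, at 64.3% GC, and holds 4 GC boxes. The WT summits lay 45 and 46 bp upstream of the Gpsm2 start, 157 and 161 bp upstream of the Trpv2 start and 107 and 130 bp upstream of the Atp8b3 start. At Ccni they lay 20 and 17 bp downstream. Starts here are those of the promoter table, and the Trpv2 region lies 919 bp from the outer bound of its gene.

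CACCTG is the E-box form that ZEB proteins and E proteins are known to bind. The next 3 promoters of WT-only regions were picked for holding it and are shown with the same capitals. They are not typical, since CACCTG stood in 13.8% of WT-only promoters. It stood in 16.7% of promoters at like-ranked gene-end regions also called in DE, and in 20.2% of all promoters.
Ncoa5: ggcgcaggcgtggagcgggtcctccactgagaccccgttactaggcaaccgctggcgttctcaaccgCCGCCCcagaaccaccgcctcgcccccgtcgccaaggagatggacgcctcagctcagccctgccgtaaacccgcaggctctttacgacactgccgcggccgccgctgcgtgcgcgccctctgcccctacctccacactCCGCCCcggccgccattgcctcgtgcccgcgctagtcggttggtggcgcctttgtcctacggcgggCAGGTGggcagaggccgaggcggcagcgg
Unc119: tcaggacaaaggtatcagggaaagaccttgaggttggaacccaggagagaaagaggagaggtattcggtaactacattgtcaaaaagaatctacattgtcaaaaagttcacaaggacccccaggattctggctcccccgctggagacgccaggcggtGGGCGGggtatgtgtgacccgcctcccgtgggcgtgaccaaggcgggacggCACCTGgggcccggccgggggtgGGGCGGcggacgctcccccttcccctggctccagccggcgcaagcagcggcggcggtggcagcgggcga
Tor1a: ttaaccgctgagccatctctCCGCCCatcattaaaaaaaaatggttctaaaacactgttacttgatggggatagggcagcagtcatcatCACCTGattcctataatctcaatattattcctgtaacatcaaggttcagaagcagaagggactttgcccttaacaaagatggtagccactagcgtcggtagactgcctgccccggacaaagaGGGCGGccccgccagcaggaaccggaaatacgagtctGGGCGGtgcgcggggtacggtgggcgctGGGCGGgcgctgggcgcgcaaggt
Ncoa5, a coactivator of nuclear receptors, has its promoter at chr2:165034730-165035029 on the minus strand. Unc119, a chaperone of lipid-modified proteins, has it at chr11:78343245-78343544 on the plus strand. Tor1a, an ATPase of the endoplasmic reticulum, has it at chr2:30967869-30968168 on the minus strand. Their WT summits lay 81 and 72 bp, 51 and 23 bp, and 11 and 19 bp upstream of the start. A match to a motif describes these letters only.

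The lists held 21968 and 17079 peaks in DE replicates 1 and 2, and 32354 and 28152 in WT replicates 1 and 2. Depth was inferred relative to the caller's background, taken as common to the lists, at 1.20 and 1.47 in DE and 0.477 and 1.04 in WT. By this inference the shorter DE lists were the deeper ones. The part of that inverse order in the WT-only calls was not tested. Gene-end regions called numbered 11128 and 9440 in DE and 12400 and 13007 in WT, means of 10284 ± 1194 and 12704 ± 429 (SD, n = 2 each). As a share of all regions called in the library they ran the other way, at 54.0% and 59.5% in DE and 44.1% and 50.5% in WT. The mean log2 difference in gene-end counts, -0.31, had p = 0.333 (exact permutation test, two-sided, 6 assignments), the smallest p that 2 against 2 libraries allow. By the rule each WT-only region adds to both WT counts and to neither DE count, so this comparison is not independent of the choice of regions. The 12 genes listed for progenitors and the monocyte lineage, not all specific to cMoPs, were Csf1r, Ly6c2, Cx3cr1, Klf4, Irf8, Cd14, Fcgr1, Lyz2, Mpeg1, Kit, Flt3 and Mpo. Of these, 10 and 10 had a gene-end region in the DE lists and 11 and 11 in the WT lists. Fcgr1 lacked one in all 4, and Cx3cr1 in both DE lists. The Cx3cr1 region is itself one of the WT-only regions, so the rule fixed that difference. Genes that mark other lineages were called less fully, with 2 and 2 of 5 granulocyte genes in DE and 2 and 1 in WT, 1 and 0 of 4 B cell genes in DE and 1 and 1 in WT, 1 and 0 of 4 T cell genes in both genotypes, and 1 of 5 erythroid and mast cell genes in each of the 4 lists.

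WT-only regions were the weaker part of the WT signal at gene ends. Both WT lists called 10926 gene-end regions, of which the WT-only ones made up 11.4%. The opposite pattern, called in both DE lists and neither WT list, held 151 of 8595 gene-end regions, or 1.76%. Farther than 1 kb from a gene end, 2206 of 7928 regions called in both WT lists were WT-only, or 27.8%. When each list was cut to the same number of strongest peaks, 414 gene-end regions were WT-only and 514 were DE-only. The excess of WT-only over DE-only gene-end regions was not present at equal length. That cut itself removes the weaker peaks of the longer WT lists, and the part of list length in these counts was not tested. Without DE replicate 1, WT replicate 1 or WT replicate 2, the rule gave 2572, 2493 and 2393 WT-only gene-end regions. The other 9676 gene-end regions of both WT lists are called kept here, 8004 of them in both DE lists and 1672 in 1.

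WT rank was taken as the mean place of a region's strongest peak by −log10 p, as a percent of each WT list, so that low percents are strong. Its median was 61.8% in WT-only regions and ranged between 9.20% and 99.5%. Among 10 equal rank classes, WT-only regions made up 0% of the strongest class, 0.366% and 0.458% of the next 2, and 43.2% (95% Wilson interval 40.3% to 46.1%) of the weakest. Of the 1250, 472 fell in the weakest class and 69 in classes 2 to 5. Wilson intervals here cover counting error only, and regions are not replicates.

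**Figure D1:**
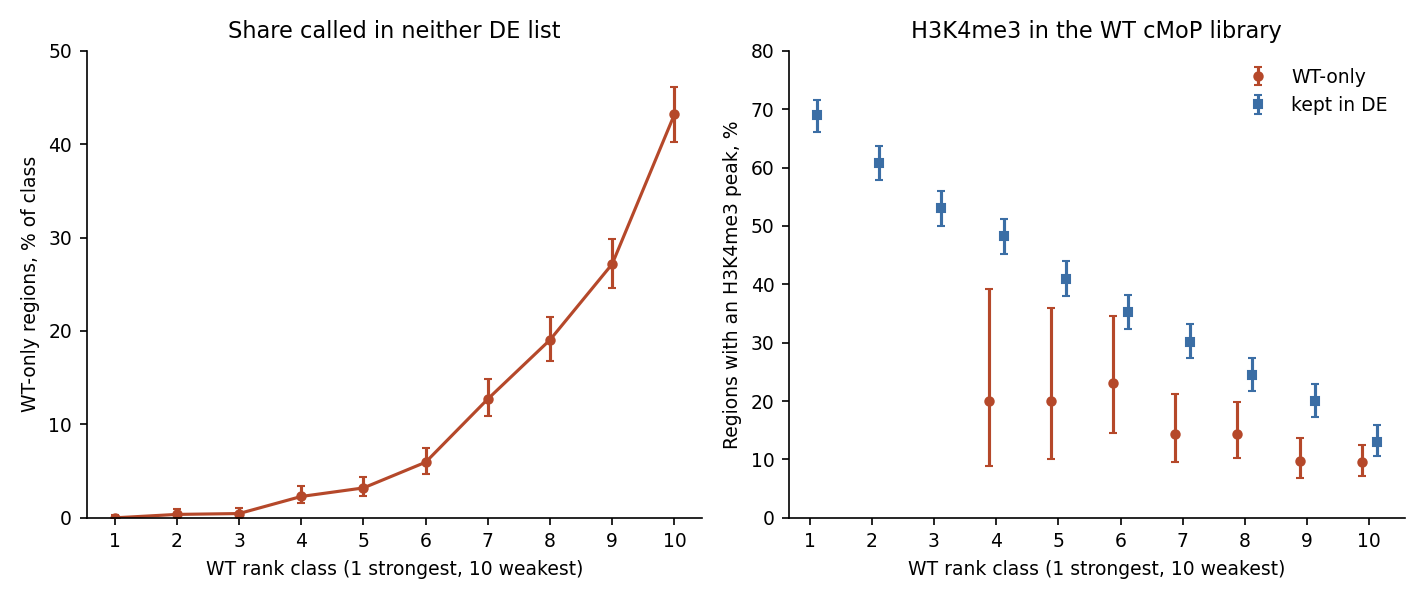
The left panel plots the percent of gene-end regions called in both WT lists that were called in neither DE list, by WT rank class, with 95% Wilson intervals; the share climbs with weaker rank to 43.2%. The right panel plots the percent of regions that overlap an H3K4me3 peak of the WT cMoP library, for WT-only regions (classes with at least 20 of them) and kept regions; the WT-only points lie below the kept ones in each class drawn.

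The number of sequenced fragments stacked at each summit was recovered from the fold and p of the authors' lists. WT-only regions had a median of 9 fragments in WT replicate 1 (3 to 27) and 16 in WT replicate 2 (5 to 52). Kept regions had medians of 14 and 29, and those kept in 1 DE list had 10 and 18. Even a called peak of this kind is therefore made of few sequenced fragments. In the DE lists the fewest fragments at any called summit with a local background of at most 1 were 5 and 6. Kept regions of the weakest rank class had medians of 13 and 13 fragments in the DE lists that called them, and a lowest value of 6 in each. Peaks in WT-only regions were also narrow, with medians of 121 bp and 155 bp in WT replicates 1 and 2 against 219 bp and 314 bp in kept regions. Within the weakest class the medians were 117 and 155 bp in WT-only regions and 132 and 199 bp in kept regions.

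The strongest WT-only regions lay at genes of varied function. The best WT rank belonged to a region near the start of Vti1b, a SNARE protein of endosomal membrane fusion, at chr12:79172005-79172179. It had 19 and 40 fragments in WT replicates 1 and 2, and the nearest region called in a DE list was 36653 bp away. Next came Coq2, an enzyme of coenzyme Q synthesis, at chr5:100675061-100675220, with 27 and 26 fragments. Here another region, 664 bp off, was called in DE. L3mbtl3, a reader of methylated lysine, had 23 and 26 fragments at chr10:26375953-26376096, and an overlapping H3K4me3 peak had 58 at its own summit. A DE-called region lay 309 bp from the L3mbtl3 region. Kazald1, a secreted protein of the insulin-like growth factor binding protein family, had 16 and 26 fragments at chr19:45074303-45074415, and Fads2, a desaturase of polyunsaturated fatty acids, had 17 and 29 at chr19:10100788-10100965. Both had a DE-called region within 1 kb, at 187 and 329 bp.

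Several of the best-ranked regions had no DE-called neighbour within 1 kb. Pdzd9, which encodes a PDZ domain protein, had 15 and 25 fragments over the outer bound of its gene at chr7:120677490-120677658. Its mean WT summit lay at -7211 bp from the nearest start of the promoter table, and the nearest DE-called region was 41850 bp away. Gpsm2, whose promoter is printed above, had 15 and 40 fragments at chr3:108722023-108722451 and a distance of 67814 bp. Snx19, a sorting nexin of endosomes, had 20 and 20 fragments at chr9:30426934-30427091 and the longest distance of these, 603073 bp. Rasgrp4, an activator of Ras known from mast and myeloid cells, had 14 and 32 fragments at chr7:29134821-29135037, 9549 bp from the nearest one. Copz2, a subunit of the COPI vesicle coat, was at the 3′ end of its gene, with 26 and 36 fragments at chr11:96861982-96862216. Ccni and Hmga2 completed the 12, with 14 and 22 fragments at chr5:93206430-93206537 and with 15 and 26 at chr10:120476711-120476888, and their nearest DE-called regions were 116 and 1482 bp away. WT replicate 2 had at least as many fragments as replicate 1 at each of the 12 except Coq2, and its inferred depth was also the greater.

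**Figure D2:**
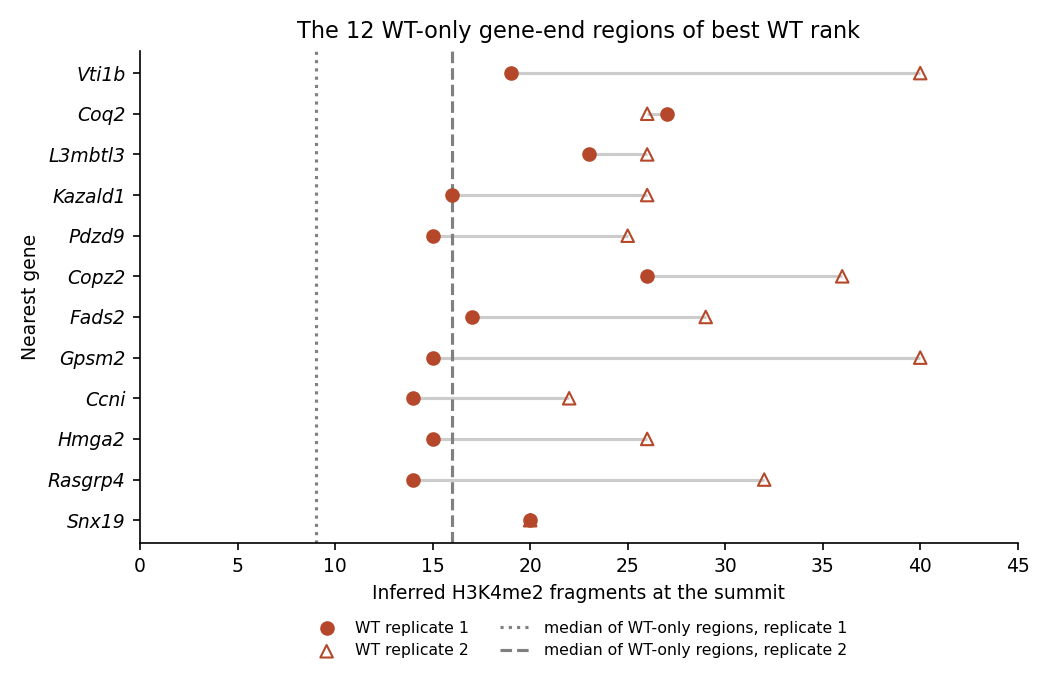
Inferred H3K4me2 fragments at the summit (x axis) of the 12 WT-only gene-end regions of best WT rank, by nearest gene, in WT replicates 1 and 2; no DE peak exists at these places. Vertical lines give the medians of all 1250 WT-only regions, 9 and 16, and the points of the 12 regions lie above the median of their own library.

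At the other end, the lowest WT ranks belonged to Tbc1d19, a protein with a Rab GTPase-activating domain, Akt2, the insulin-responsive kinase, and Frzb, a secreted inhibitor of Wnt ligands. Their fragments numbered 8 and 13, 10 and 15, and 3 and 7 in WT replicates 1 and 2. The 1 kb limit cut through a continuous range of distances. Just inside it lay WT-only regions at Megf9 and Rcn3, at 991 and 988 bp, with 4 and 11 and with 6 and 11 fragments. Just outside lay regions of the same call pattern at Ogfod2, Creg2 and 2310011J03Rik, at 1001, 1013 and 1015 bp, with 15 and 15, 7 and 7, and 4 and 8 fragments.

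Because the rule fixed the calls in all 4 H3K4me2 lists, the calls were also read in libraries left out of the choice. Gene-end regions called in WT replicate 1 and not in DE replicate 1 numbered 2814, and of these 15.0% (13.7% to 16.3%) were called in DE replicate 2 and 56.9% (55.0% to 58.7%) in WT replicate 2. The 2968 called in WT replicate 2 and not in DE replicate 1 were called at 16.0% in DE replicate 2 and at 53.9% in WT replicate 1. Where DE replicate 2 made the choice, the difference was smaller. The 3874 regions in WT replicate 1 and not DE replicate 2 were called at 38.2% in DE replicate 1 and 66.4% in WT replicate 2, and the 4189 in WT replicate 2 and not DE replicate 2 at 40.5% and 61.4% in DE replicate 1 and WT replicate 1. In all 4 choices the held-out DE share was below the held-out WT share, by 20.9 to 41.9 points. Over all 15609 gene-end regions the DE calls were also fewer, at 11128 and 9440 in DE replicates 1 and 2 against 12400 and 13007 in WT replicates 1 and 2. The part of these unequal totals in the differences was not tested.

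The mirror choice did not give the mirror image. Of 1542 gene-end regions in DE replicate 1 and not WT replicate 1, 31.8% were called in DE replicate 2 and 46.2% in WT replicate 2. Of 914 in DE replicate 2 and not WT replicate 1, 53.6% were called in DE replicate 1 and 50.8% in WT replicate 2. Against WT replicate 2 the shares were 23.1% in DE and 23.9% in WT for 1089 regions of DE replicate 1, and 40.5% in DE and 27.7% in WT for 622 regions of DE replicate 2. The held-out DE share was thus above the WT share in 2 of 4 mirror choices. The lists of each pair differ in length and depth, and the part of either in these shares was not tested.

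**Figure D3:**
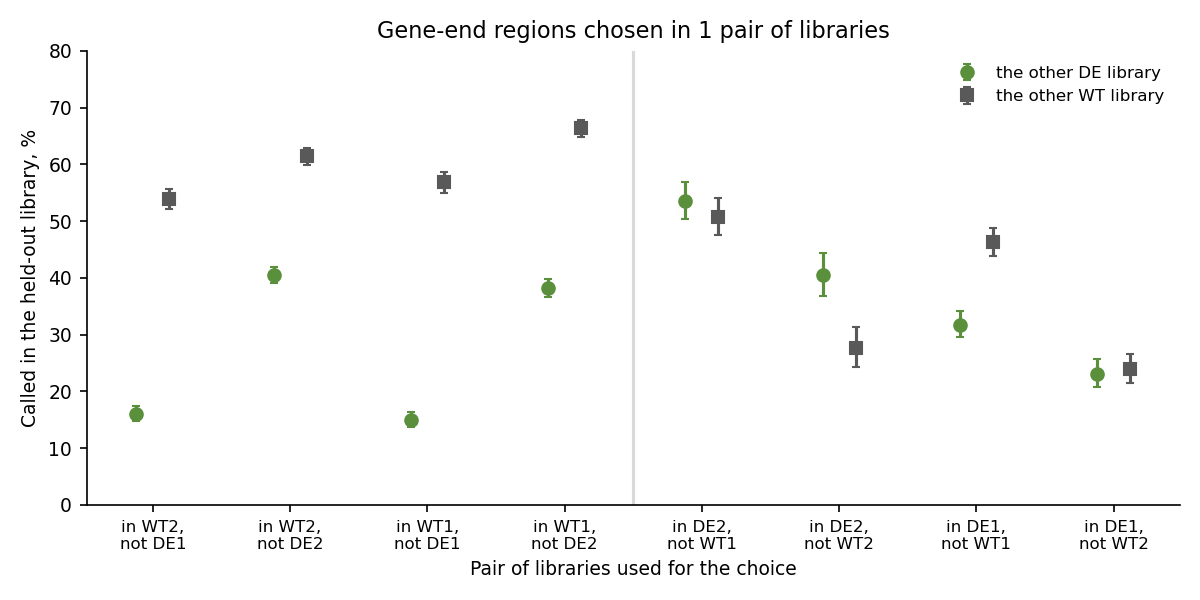
Percent of gene-end regions (y axis, 95% Wilson intervals) that were called in the held-out DE library (circles) and the held-out WT library (squares), for each pair of libraries used to choose the regions (x axis). In the 4 choices called in WT and not in DE, at the left, DE lies between 15.0% and 40.5% and WT between 53.9% and 66.4%; in the 4 mirror choices at the right the order of the pair varies.

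H3K4me3, which the rule did not use, was less frequent at WT-only regions. A peak of the WT H3K4me3 library overlapped 153 of the 1250, or 12.2% (10.5% to 14.2%), against 41.8% (40.8% to 42.8%) of kept regions. Among kept regions H3K4me3 was also less frequent at weaker ranks, so they were weighted to the WT-only spread over rank classes, which gave 21.4% and a difference of -9.20 points. Read only at the WT summit, the shares were 11.8% of WT-only regions and 19.4% of kept regions at the same ranks. With weighting by rank and WT peak width together the difference was -7.89 points, and without WT replicate 2 it was -15.8 points by rank alone. By class, the shares were 23.1% and 35.3% in WT-only and kept regions of class 6, 14.4% and 30.2% in class 7, 14.4% and 24.4% in class 8, 9.76% and 19.97% in class 9, and 9.53% and 13.0% in the weakest class. The intervals overlapped in class 6 and in the weakest class and not in classes 7 to 9. The H3K4me3 data are 1 WT library, so there is no spread between libraries and no DE value. Its batch differs from that of the H3K4me2 libraries, a difference common to both sets of regions.

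H3K4me3 peaks that overlapped WT-only regions were near in height to those that overlapped kept regions. The summit of the strongest overlapping peak held a median of 59 fragments for WT-only regions (16 to 174, n = 153). For kept regions the median was 65 (16 to 276, n = 4045). That summit can lie outside the region, and this holds for each H3K4me3 fragment number given for a gene. The WT-only regions with H3K4me3 often sat beside a DE-called region: 99 of 153, or 64.7% (56.9% to 71.8%), had one within 1 kb, against 529 of 1097, or 48.2% (45.3% to 51.2%), of those without H3K4me3. Read the other way, H3K4me3 was found at 15.8% of WT-only regions with such a neighbour and at 8.68% of those without. In kept regions these shares were 43.7% and 40.0%, in a comparison not matched on WT rank. Among the 10 best-ranked WT-only regions with H3K4me3, 8 had a DE-called region within 1 kb. Baz2a, a subunit of the NoRC chromatin remodeller, had 16 and 22 H3K4me2 fragments in WT replicates 1 and 2 and 39 H3K4me3 fragments at chr10:128091087-128091240, 255 bp from a DE-called region. Taf6, a subunit of TFIID, had 8 and 18 with 47 H3K4me3 fragments at chr5:138187394-138187564, and Cpsf7, a factor of mRNA 3′ end cleavage, had 16 and 19 with 55 at chr19:10525659-10525871. Cep57l1, Arf4 and Akt1s1 had neighbours 185, 509 and 228 bp away. The exceptions were Arrb2, the gene of beta-arrestin 2, with 19 and 27 fragments and 75 of H3K4me3 at chr11:70432240-70432697, and Ssr3, a subunit of the translocon-associated complex, with 18 and 31 and 78 of H3K4me3 at chr3:65392526-65392719. Their nearest DE-called regions lay 19135 and 91711 bp away.

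Most WT-only regions were at gene starts. The gene strand was known for 1029 of the 1250, and 948 of these, or 92.1% (90.3% to 93.6%), were nearer to the start than to the 3′ end, against 95.8% of kept regions at the same ranks. The remaining 81 sat at 3′ ends. A gene end lay inside 501 of the regions, and the median distance was 137 bp. Ends of at least 2 protein-coding genes lay within 1 kb of 13.5% of WT-only regions and 14.2% of kept regions at the same ranks, and a long noncoding RNA gene end of 10.8% and 12.4%. Only 2 overlapped a tRNA gene, 3 a miRNA gene and 0 a snoRNA or snRNA gene. A limit of 3 counts allows a share of up to 0.24% there, and the upper Wilson bound is 0.306%. Another region called in DE lay within 1 kb of 50.2% (47.5% to 53.0%) of them and of 54.3% of kept regions at the same ranks.

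The summit was placed against the gene start for 919 WT-only regions. It lay in the 150 bp before the start in 38.3% (35.2% to 41.5%), against 34.2% of kept regions at the same ranks, and 500 to 1500 bp upstream in 10.6% (8.73% to 12.7%) against 6.87%. Downstream of the start the order turned, with 11.4% against 14.8% between 150 and 500 bp and 16.2% against 20.4% between 500 and 1500 bp. This order holds only against kept regions of like rank. Against all kept regions without weights, the share was lower in the 150 bp before the start, at 38.3% against 49.0%, and higher downstream, at 11.4% against 9.32% between 150 and 500 bp and 16.2% against 10.9% between 500 and 1500 bp. From 500 to 1500 bp upstream it was higher either way, at 10.6% against 5.52% without weights.

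**Figure D4:**
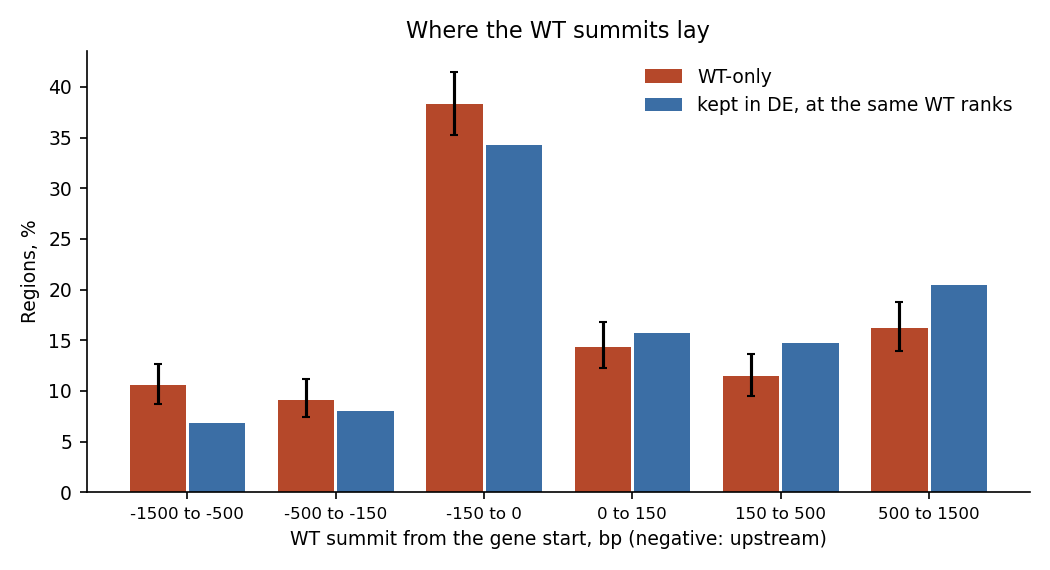
Percent of regions (y axis) by the position of the WT summit relative to the gene start in bp (x axis, negative values upstream), for 919 WT-only regions with 95% Wilson intervals and for kept regions weighted to the same WT ranks. At these matched ranks, WT-only bars are higher upstream and lower downstream of the start, for example 10.6% against 6.87% at -1500 to -500 bp.

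At matched ranks CpG-rich promoters were less frequent at WT-only than at kept regions, and the GC box and CCAAT box shares differed less. The table held a promoter window overlapping 544 WT-only and 5833 kept regions, and 32851 promoters in all. A CpG-rich promoter, with over 50% GC and a ratio of observed to expected CpG over 0.6, was found at 71.0% (67.0% to 74.6%) of WT-only regions, 76.2% of kept regions at the same ranks and 33.3% of all promoters. Median GC was 60.2% in WT-only and 63.0% in kept regions. The GC box GGGCGG stood in 68.8% of WT-only promoters, 71.1% of kept ones at the same ranks and 35.7% of all. The CCAAT box stood in 39.5%, 39.0% and 37.4%. Both strands were searched for each motif.

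E-box shares lay within 3 points of those of kept promoters at the same ranks. The general form CANNTG stood in 61.9% (57.8% to 65.9%) of WT-only promoters and 61.3% of kept ones. CACCTG stood in 13.8% (11.1% to 16.9%) of WT-only promoters, 16.7% of kept promoters at the same ranks and 20.2% of all promoters. CAGCTG, another form bound by E proteins, stood in 15.1%, 14.2% and 16.3%, and CACGTG, the form of MYC and USF proteins, in 11.2%, 11.3% and 7.15%. Other motifs were also near the kept shares: CCGGAAG of ETS factors in 17.5% against 20.5%, GAGGAAGT of PU.1 in 3.86% against 3.76%, TTGCNNAA of C/EBP factors in 7.54% against 7.54%, and TGTGGT of RUNX factors in 12.5% against 13.0%. The widest gap below was that of TGACGT, the core of the CREB and ATF site, with 9.38% (7.20% to 12.1%) against 13.1%, and 7.51% of all promoters. Absence of a match concerns these letters in this window only.

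For many genes the WT-only region was not the only marked place. Of 9751 protein-coding genes with a gene-end region called in both WT lists, 1330 had a WT-only one within 1 kb of an end. For 751 of these, or 56.5% (53.8% to 59.1%), another gene-end region was called in a DE list, and for 579, or 43.5% (40.9% to 46.2%), none was. The 579 are 5.94% of the genes tested, a share that the rule itself shapes. Their number was 228 in lists of equal length, 1439 without DE replicate 1, and 942 and 923 without WT replicates 1 and 2. H3K4me3 within 1 kb of an end differed between these kinds of genes in a comparison not matched on WT rank: 58 of the 579 (interval 7.83% to 12.7%) had it, against 347 of the 751, or 46.2% (42.7% to 49.8%), and 4009 of 8421 genes without a WT-only region, or 47.6%. Assigned to the nearest gene, the 1250 regions fell to 1179 genes, of which 61 had 2 and 5 had 3.

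The 5 genes with 3 WT-only regions were Acvr1, Gbx2, Hmga2, Pou2f1 and Prdx2. Acvr1 encodes a type I receptor of bone morphogenetic proteins and activins. Its regions at chr2:58566588-58566974, chr2:58567121-58567343 and chr2:58567557-58567743 lay next to each other over the start, with 8 and 11, 15 and 27, and 9 and 11 fragments, and no DE-called region lay nearer than 80026 bp. Gbx2, a homeobox factor of the early brain, had 2 regions at its start and 1 at its 3′ end, with 10 and 23, 11 and 11, and 11 and 16 fragments, and no DE-called region nearer than 337307 bp. Hmga2, an architectural chromatin protein of fetal and progenitor cells, and Pou2f1, the octamer-binding factor, had theirs side by side at the start. At Pou2f1 the strongest had 20 and 28 fragments at chr1:166002650-166002765 and a DE-called region 993 bp away. At Prdx2, a peroxidase, 2 lay at the 3′ end and 1 at the start, with 5 to 8 fragments in WT replicate 1 and 7 to 16 in replicate 2.

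At genes of the monocyte lineage the WT-only share was near that of all gene-end regions. Of 24 gene-end regions of monocyte and macrophage genes called in both WT lists, 2 were WT-only, or 8.33% (2.32% to 25.9%), against 2.42 regions that the WT-only shares of their rank classes would give. These were at Cx3cr1, the fractalkine receptor, with 7 and 23 fragments at chr9:120068172-120068487, and at Cd68, a lysosomal protein of macrophages, with 7 and 20 at chr11:69666044-69666443. Both regions spanned the gene start, and neither gene had another DE-called gene-end region. Granulocyte genes had 0 of 13 WT-only regions against 1.40 by rank class, and MHC class II and antigen presentation genes 0 of 18 against 1.62. Stem and progenitor genes had 1 of 24 against 1.79, at Hlf, with 3 and 8 fragments and a DE-called region 231 bp away. Among C/EBP and PU.1 core regulators it was 2 of 31 against 2.05: Cebpd, a C/EBP factor of inflammation, with 17 and 28 fragments at chr16:15890058-15890189, and Runx3, with 12 and 16 at chr4:135120385-135120649.

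Of 12 dendritic cell regions 3 were WT-only, against 1.27 by rank class, and each was weak. Batf3, a transcription factor required by conventional dendritic cells of type 1, had 6 and 8 fragments over its start at chr1:191098281-191098469. Cadm1, an adhesion molecule of the same cells, had 5 and 12 at chr9:47530144-47530391, and Clec10a, a C-type lectin of type 2 cells, had 7 and 9 at chr11:70166472-70166581. The nearest DE-called regions lay 12387, 90673 and 5860 bp away. Of 16 regions of E proteins, ID inhibitors and their partners, 1 was WT-only against 2.48 by rank class, at Lmo4, a LIM-only partner of these factors. It had 12 and 9 fragments and 40 of H3K4me3 at chr3:144205097-144205358, and a DE-called region lay 29 bp from it. The other lists of blood lineages held few regions: T cell genes had 1 region, which was WT-only, at Cd247 with 5 and 10 fragments, and NK genes had 1, at Tbx21 with 6 and 6. B cell genes had 0 of 1, erythroid and megakaryocyte genes 0 of 5, and mast cell genes had no region in both WT lists.

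Receptor and signalling genes varied by list. Cytokine and growth factor receptors had 6 of 35 against 4.81, of which 3 were those of Acvr1 and 2 of Il4ra, the interleukin 4 receptor, and the sixth was at Tnfrsf1b, a receptor of tumour necrosis factor, with 9 and 18 fragments. Toll-like receptor and NF-kB genes had 1 of 31 against 2.91, at Rel, an NF-kB subunit, with 11 and 22 fragments at chr11:23770747-23771508. Interferon response genes had 1 of 15 against 2.54, at Ifit2 with 10 and 15. G protein-coupled receptors named Gpr or Adgr had 9 of 40 against 5.18, led by Gpr65, a proton-sensing receptor of leukocytes, with 9 and 12.

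Genes of cilia had the highest WT-only share of the lists with at least 20 regions. Of 31 regions of intraflagellar transport and ciliary genes, 10 were WT-only, or 32.3% (18.6% to 49.9%), against 3.52 by rank class; the median WT rank of the list was 35.8%, and that of all gene-end regions in both WT lists 29.8%. The 10 regions belonged to 10 genes. Tctn3, a protein of the ciliary transition zone, had 18 and 44 fragments over its start at chr19:40612141-40612389. Ttc26, a subunit of the intraflagellar transport machinery, had 16 and 23 at chr6:38381423-38381576. The nearest DE-called regions lay 22623 and 26571 bp from them. Bbs12, a chaperonin-like protein that helps build the BBSome, had 9 and 17 fragments 945 bp from its start, with a DE-called region 739 bp away. Others were at Ift80, Bbs4, Ift81, Gas8, Bbs10 and Bbs2. These regions were chosen on the calls that the count uses, and 27 lists and 21 families were counted, so the share is a description of these libraries.

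SNARE and vesicle fusion genes had 8 of 41 against 4.70, at Vti1b (2 regions), Stx17, Vamp5, Gosr1, Stx7, Stx2 and Stx6. Stx17, the syntaxin of autophagosomes, had 24 and 47 fragments over its start at chr4:48124830-48124963, 79197 bp from a DE-called region. Gosr1, a SNARE of the Golgi, had 15 and 33 and an H3K4me3 summit of 69 fragments, 153 bp from one. Autophagy genes had 7 of 39 against 5.66, and the best-ranked was at Gabarapl2, of the ATG8 family. Proteasome subunits had 6 of 30 against 2.19: Psmb6, Psmd9, Psmd6, Psma1, Psmd1 and Psmb5. Psmb6, a catalytic subunit, had 18 and 24 fragments and 61 of H3K4me3 at chr11:70525192-70525415, and Psmd9, an assembly chaperone, had 9 and 28 at chr5:123228115-123228347. Rab GTPases had 8 of 49 against 5.85. Lysosome and proton pump genes had 5 of 50 against 5.11 and solute carriers 21 of 197 against 22.6, both close to the counts by rank.

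Cell cycle and DNA replication genes had the lowest WT-only share drawn in the plot of gene groups, 1 of 51, or 1.96% (0.347% to 10.3%), against 5.12 by rank class. It was at Top2a, the topoisomerase of mitotic chromosomes, with 17 and 15 H3K4me2 fragments over the start at chr11:99024150-99024275. The H3K4me3 peak that overlapped it had 114 fragments at its own summit. Respiratory chain subunits had 2 of 70 against 5.92, at Ndufa4l2 and Atp5l, and transfer RNA synthetases 1 of 35 against 2.77, at Mars2. Cytosolic ribosomal protein, peroxisome and housekeeping genes had counts above those by rank class. Cytosolic ribosomal proteins had 8 of 64 against 4.26, among them Rps24 with 20 and 35 fragments and 167 of H3K4me3. Peroxisome genes had 3 of 27 against 1.25. Mitochondrial ribosomal proteins had 4 of 54 against 4.64. Housekeeping genes had 4 of 30 against 2.54, at Rplp0, Tubb5, Rab7 and Ppia. At Rab7 no other gene-end region was called in DE, and at the remaining 3 genes another was.

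Histone lysine methyltransferases and demethylases had 9 of 56 against 7.86. Setd1b, a SET1-type writer of H3K4 methylation, had 10 and 13 fragments and 48 of H3K4me3 at chr5:123142086-123142275, and Kmt2e had 13 and 18 with 53 of H3K4me3, with DE-called regions 181 and 199 bp away. Kdm1a, the eraser of H3K4me2 and H3K4me1, had 15 and 18 fragments over its start at chr4:136602695-136602842, 132416 bp from a DE-called region. DNA repair genes had 5 of 39 against 3.67, among them Brca2 with 12 and 15 and Msh6 with 12 and 17. Zinc finger genes named Zfp had 27 of 266 against 30.9, and genes named Tmem 26 of 156 against 18.5. Some Zfp genes, such as Zfp973 and Zfp729a, have near-identical copies, so reads there may belong to a copy and their calls are uncertain. By chromosome the WT-only share of gene-end regions in both WT lists lay between 7.05% on chromosome 13 and 16.1% on chromosome 7.

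**Figure D5:**
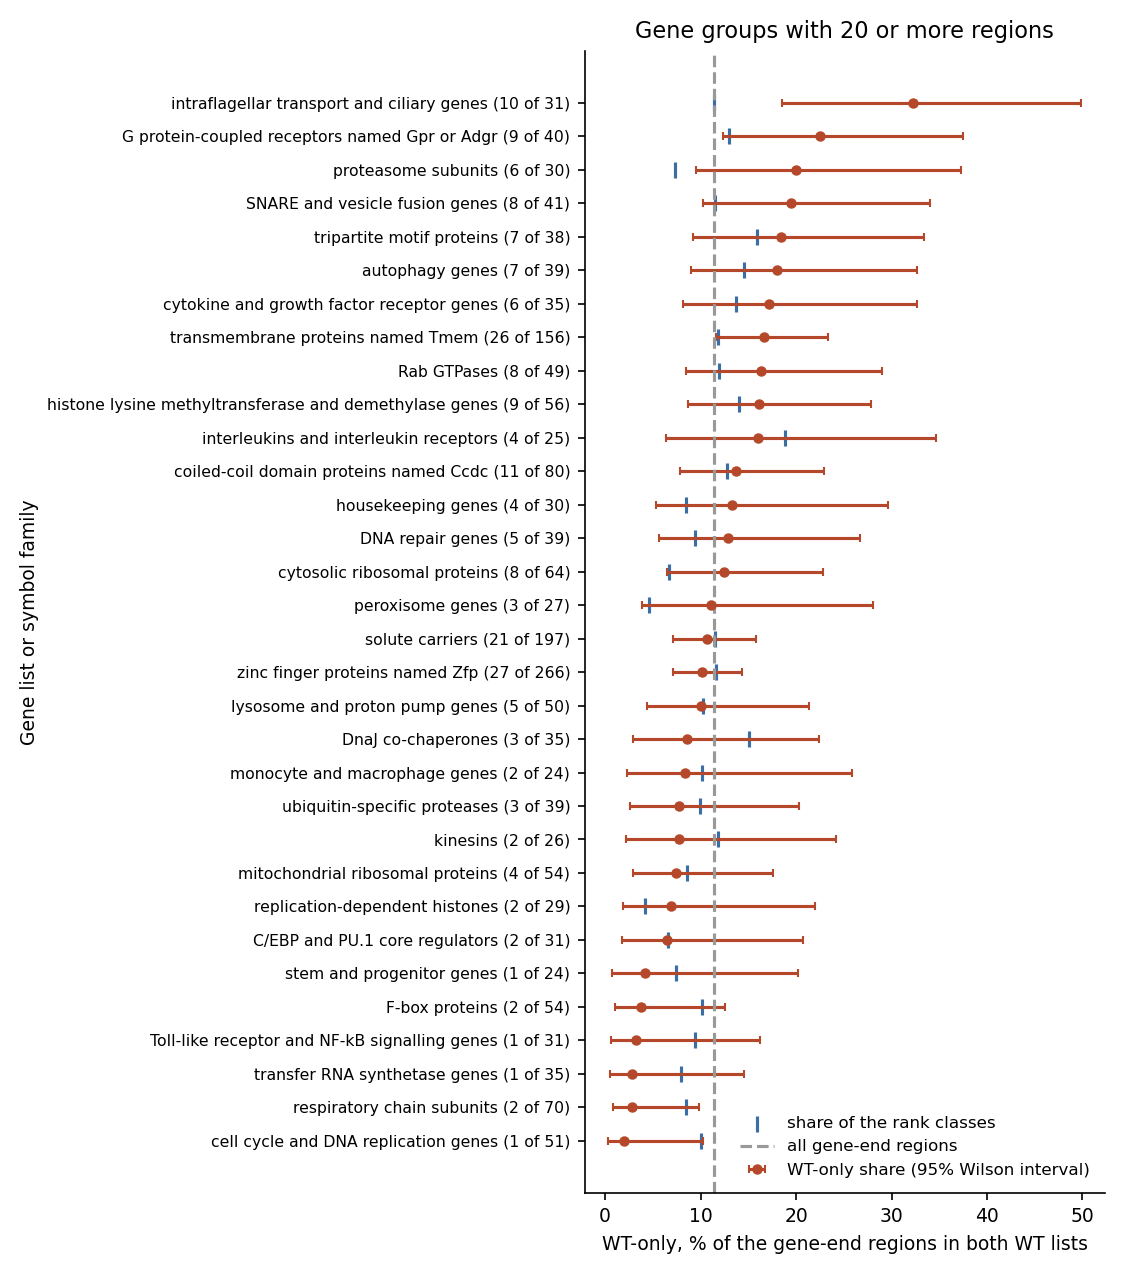
Percent of gene-end regions in both WT lists that were WT-only (x axis, points with 95% Wilson intervals), for gene lists and symbol families with at least 20 such regions (y axis, with counts). Blue ticks give the share from the WT-only shares of the rank classes, and the dashed line the 11.4% of all gene-end regions; ciliary genes lie highest at 32.3% and cell cycle genes lowest at 1.96%.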

How the data were processed

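CUTAC libraries were read over 150 bp from both ends, per the labels' protocols. Per the submitters' processing notes the build was mm10 and MACS2 2.2.9.1, Picard, SAMtools, Bowtie2 and Trimmomatic were used. The sources used here give no settings, duplicate handling or control. Of 7 samples, the peak lists of 5 were used, each called on a single library. The deposited score is 10 times the −log10 q. The authors' fold is the ratio of summit pileup to local background, with 1 added to each. Whether that background came from the same library is not stated. The inferred depths assume 1 background common to the lists, which was not tested. The −log10 of p and of q are as deposited, and so is the summit offset. They were used to rank, filter and describe peaks within a list. The track line in the list of DE replicate 1 carries the name of replicate 2; the series' own file record decided its sample.

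Entries that share an interval were counted once, by their strongest p. Gene bounds are those of RefSeq on GRCm38.p6, and strand came from its promoter table (17492 of 21887 protein-coding genes). Coordinates are counted from 1. Fragments at a summit were solved from fold and p, as whole multiples of the pileup of 1 fragment (0.834 and 0.679 in DE, 1.00 and 0.963 in WT, 0.263 for H3K4me3). Of the summits tested, 99.2% to 100% were whole within 0.004 in pileup, against 4.33% to 5.67% with other units. Kept shares at the same ranks are shares by rank class averaged with the WT-only counts as weights. Library counts were compared with an exact permutation test. Named are the 12 best-ranked WT-only regions, the 10 best with H3K4me3, up to 4 for a gene list and 3 for a symbol family, genes with 3 regions, and the regions at the 1 kb limit and of lowest rank. Other list members are named without values, and a few items are not reported here. The regions, lists and tests were chosen with earlier results of these data known. Alternatives tried were equal list lengths, 50% cover, a −log10 q cut of 5, merging within 500 bp, windows of 500 bp and 2 kb, weights by width or none, the replicate block and leaving out each library. The code was tested on simulated data. Python 3.11.15 was used.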

Additional observations from a re-analysis of the deposited data

Results flagged for a closer look

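Chromosome X was outside the autosomal rule, and gene-end regions with the same call pattern were found there. Of 266 gene-end regions on chromosome X called in both WT lists, 58 were called in neither DE list, or 21.8%, and 6 regions there were called in both DE lists and neither WT list. On the autosomes the WT-only share was 11.4%.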

How the results depend on the processing

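All 4 H3K4me2 libraries are of 1 batch, and depth is known only by inference. With 2 libraries a genotype, the exact permutation test cannot go below p = 0.333. The number of WT-only gene-end regions was 414 in lists of equal length and 749 with merging within 500 bp. It was 944 to 1555 under the other 4 settings. Leaving out 1 library gave 1600 to 2572; the 2493, 2393 and 2572 without WT replicate 1, WT replicate 2 and DE replicate 1 follow from the looser rule that 1 list sets. Genes with no DE-called gene-end region numbered 228 at equal length and 1065 at a −log10 q of at least 5, and 770 to 1439 with 1 library left out.

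The H3K4me3 difference from kept regions at the same ranks stayed negative in every setting run. It was -15.3 points at equal length, -11.8 with merging within 500 bp, -29.6 without weights, and -6.53 against regions kept in 1 DE list, a setting chosen after seeing the data. Leaving out 1 library gave -15.8 to -6.93. In 7 other settings it lay between -10.5 and -7.66. The CpG-rich difference was -5.29 points with weights and -10.3 without. The mean log2 difference in gene-end regions per library was -0.60 to -0.28 in other settings and -0.43 to -0.19 with 1 library left out. The replicate block, which pairs libraries by number, gave the same -0.31 with exact p = 0.5, the smallest 2 pairs allow; the labels do not say whether a number marks a shared preparation. The placing of summits around the gene start also turned without weights, as given in the results. The causes of these shifts were not tested.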
